A study of Mus musculus with 6 samples.

Results

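The aquaporins are a family of membrane channels for water, and some of them also pass glycerol. The 10 mouse genes Aqp1, Aqp2, Aqp3, Aqp4, Aqp5, Aqp6, Aqp7, Aqp8, Aqp9 and Aqp11 were taken by gene symbol from the 25206 Entrez Gene rows of the arrays, and all 10 had a row. Expression was measured with Affymetrix Mouse Gene 2.0 ST arrays in whole kidneys of male C57BL/6 mice aged 3 months, with 3 arrays of the wild-type and 3 of the Vhl knockout genotype. Mice of both genotypes carried a floxed Vhl allele. The knockout mice also carried Hoxb7-Cre-GFP. The array labels name no Cre for the wild-type mice, whereas the study's cultures of tubule cells took their wild-type cells from mice that carried this transgene. If the wild-type mice of the arrays had none, the loss of Vhl and the transgene cannot be told apart. The Hoxb7 promoter is active in the ureteric bud and the collecting ducts that grow from it, so the extract also held many cells that kept Vhl. No source says outright that each array came from a separate mouse, and the p-values then measure only the spread between these samples, which may be technical.

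In the kidney, water leaves the urine in several steps. Aqp1 lets water through the proximal tubule, the thin descending limb and the descending vasa recta. In the principal cells of the collecting duct, vasopressin raises cyclic AMP through its receptor Avpr2 and moves Aqp2 into the apical membrane, and the water then leaves the cell through Aqp3 and Aqp4 in the basolateral membrane. Mice without Aqp3 and mice without Aqp2 are known to have a urine concentrating defect.

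The values were log2 signals, 1 per gene and array, which the authors had made with RMA (background correction, normalization between arrays and summary of the probes). A difference of 1 on this scale is a doubling. Signals of different genes come from different probes and are not compared as levels. Array medians differed by at most 0.036. The genotypes were compared in every row with limma, and p was adjusted by Benjamini-Hochberg across the 25206 rows, of which those with an adjusted p under 0.05 count as passing. Changes are given on the log2 scale, Vhl knockout minus wild-type, with n = 3 arrays per genotype throughout. By this rule 2.77% of all rows changed, 2.24% being higher and 0.524% lower in the Vhl knockout kidneys. The row of Vhl itself read 6.11, 6.13 and 6.03 on the wild-type and 6.08, 6.18 and 6.10 on the knockout arrays (limma adjusted p = 0.86). No source used here names the exons that this row reads, so the row is no check of the labels. The mean signal of 6 adipocyte markers was 7.44 and 6.58 for knockout replicates 1 and 3, against 4.75 for replicate 2, and lay between 4.78 and 5.21 for the wild-type kidneys.

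The sequences around the start of Aqp2 and of Aqp3 are shown because both genes act in the same principal cells, while 1 of them passed the test described here and the other did not. They come from RefSeq (GRCm38.p6) and run from 250 bases before the annotated start to 50 bases from it, 5′ to 3′ on the strand of the gene. Capitals mark matches, on either strand, to any of 5 motifs. The first is ACGTG, part of the element that hypoxia-inducible factors bind, and the second is TGACG, a core that cyclic AMP response element binding proteins recognise. The third is GATAA, bound by GATA factors, the fourth is the TATA box TATAA, and the fifth is GGGCGG, bound by Sp1.
Aqp2, chr15:99578806-99579105, plus strand: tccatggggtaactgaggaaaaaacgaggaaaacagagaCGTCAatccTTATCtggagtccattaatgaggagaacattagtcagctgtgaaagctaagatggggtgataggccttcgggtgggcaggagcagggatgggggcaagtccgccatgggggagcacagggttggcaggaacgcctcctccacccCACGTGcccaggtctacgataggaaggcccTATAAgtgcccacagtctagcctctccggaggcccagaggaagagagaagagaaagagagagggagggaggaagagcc
Aqp3, chr4:41098134-41098433, minus strand: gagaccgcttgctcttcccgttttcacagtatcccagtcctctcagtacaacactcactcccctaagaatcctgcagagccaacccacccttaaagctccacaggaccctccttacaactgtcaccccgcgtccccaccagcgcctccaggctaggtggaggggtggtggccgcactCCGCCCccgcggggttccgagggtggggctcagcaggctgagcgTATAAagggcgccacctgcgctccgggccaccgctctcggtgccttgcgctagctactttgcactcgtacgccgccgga
Each window held a single TATAA, which began at position -28 in Aqp2 and -29 in Aqp3, counted from the start with no position 0. The Aqp2 window also had TGACG at -211 and GATAA at -202, both on the minus strand of the gene. The first motif matched there on both strands at -58 and -57, within the palindrome CACGTG. The Aqp3 window held GGGCGG at -73 on the minus strand and none of the first 3 motifs. Of the 32851 promoter windows of this length in the table, 19.6% held the first motif, 20.8% the second, 25.4% the third, 24.9% the TATA box and 35.7% the Sp1 motif. A match is not evidence of binding, and a window without one says nothing about the factor. Promoter windows were found for 9 of the 10 genes, all but Aqp4, with 11 windows in all. Matches to the first motif were also found in windows of Aqp5, Aqp6, Aqp8 and Aqp9.

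Both basolateral water channels of the principal cell were lower in the Vhl knockout kidneys, while the apical channel Aqp2 did not pass the test. Of the 10 aquaporins, 2 were lower, none was higher and 8 did not pass, beside 0.524% of all rows that were lower. At an unadjusted p under 0.05, Aqp3, Aqp4 and Aqp8 were lower (3 of 10) with 0 higher, beside 17.0% of all rows in either direction, 8.67% higher and 8.38% lower. Their median change was -0.08, against -0.03 over all rows. In a whole kidney, fewer cells of a type and less RNA per cell cannot be told apart. Which cells gave the signals of Aqp3 and Aqp4 was not measured.
Aqp4 read 9.29, 8.63 and 8.48 in the wild-type kidneys, against 7.44, 7.22 and 7.37 in the Vhl knockout kidneys. Every knockout array lay below every wild-type array, by at least 1.04, and wild-type replicate 1 stood above the other wild-type arrays. The means were 8.80 ± 0.43 and 7.35 ± 0.11 (log2 signal, SD, n = 3), a change of -1.45 with a standard error of 0.201 (limma adjusted p = 0.0143), or 36.5% of the wild-type signal with a 95% interval from 26.3% to 50.6%. Without wild-type replicate 1 the change was -1.21 (adjusted p = 0.0139), and without knockout replicate 1, 2 or 3 the adjusted p was 0.0501, 0.0513 and 0.0517.
Aqp3, which passes glycerol as well as water, read 8.74, 8.60 and 8.77 in the wild-type and 7.98, 7.99 and 8.06 in the knockout kidneys. Again the groups did not overlap, and here the arrays of each genotype lay close together. The means were 8.70 ± 0.088 and 8.01 ± 0.043, a change of -0.70 with a standard error of 0.0774 (limma adjusted p = 0.00684), or 61.6% of the wild-type signal with a 95% interval from 54.4% to 69.9%. Aqp3 passed the test with each array left out in turn.
Aqp2 read 7.71, 7.74 and 7.71 in the wild-type and 7.53, 7.72 and 7.65 in the knockout kidneys. The genotypes overlapped. Its change was -0.09 (limma adjusted p = 0.626) with a 95% interval from -0.27 to 0.10, so that a fall as large as that of Aqp3 lay outside the interval.

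**Figure D1:**
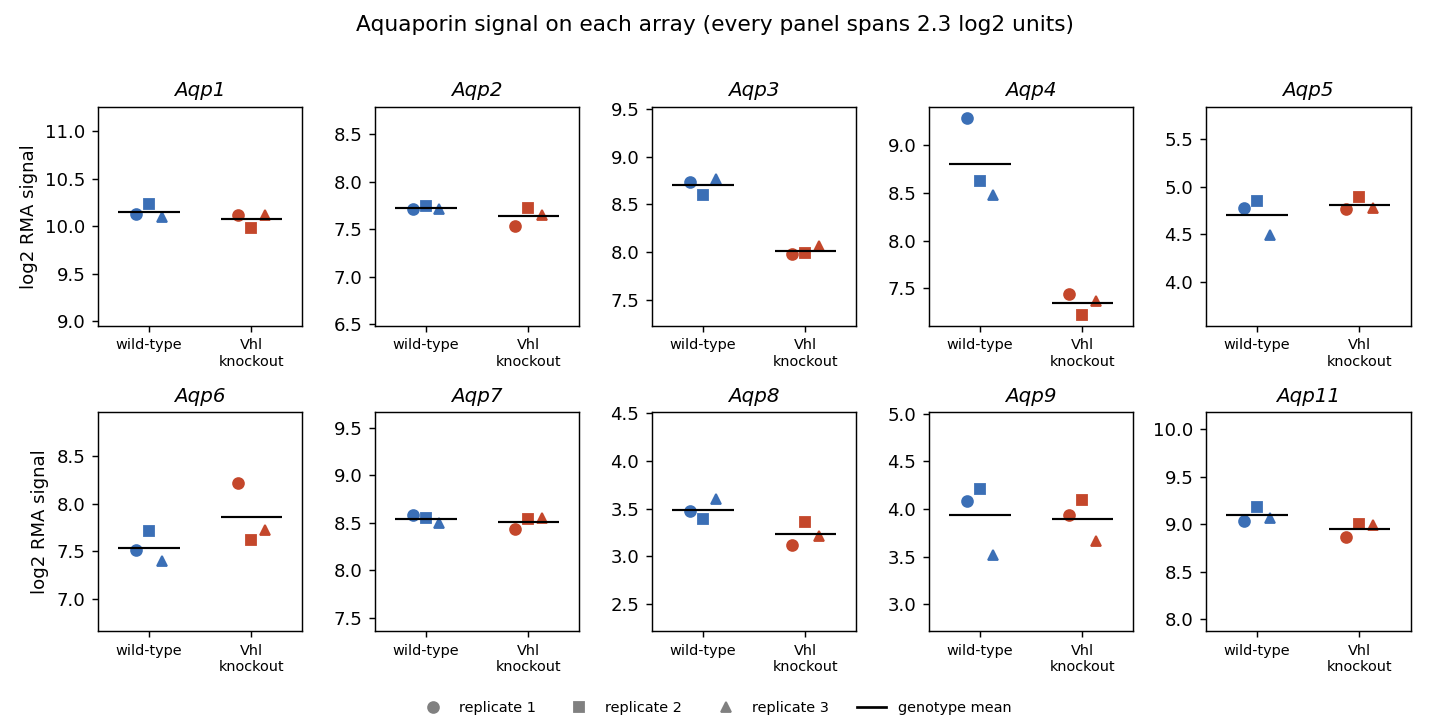
Log2 RMA signal of each aquaporin on the 3 wild-type (blue) and 3 Vhl knockout (red) arrays, with replicates as symbols and the genotype mean as a line. Aqp3 and Aqp4 separate the genotypes by 0.55 and 1.04 at their nearest arrays, while the arrays of Aqp2 overlap.

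Whether the 3 collecting duct channels changed by unequal amounts was measured within each array, which removes any shift that an array has in all genes. Aqp4 minus Aqp2 was 1.58, 0.90 and 0.76 in the wild-type kidneys, against -0.08, -0.50 and -0.28 in the knockout kidneys, a change of -1.37. Aqp3 minus Aqp2 changed by -0.61, from 1.03, 0.87 and 1.06 to 0.45, 0.27 and 0.40. The groups did not overlap in either difference. Aqp4 minus Aqp3 was 0.55, 0.03 and -0.29 in the wild-type and -0.53, -0.77 and -0.68 in the knockout kidneys, a change of -0.76 with a wide spread among the wild-type arrays. By exact permutation (two-sided), each of these 3 differences had p = 0.1 (adjusted p = 0.1 over the 3), which is the smallest p that 3 arrays against 3 allow and cannot pass 0.05.

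**Figure D2:**
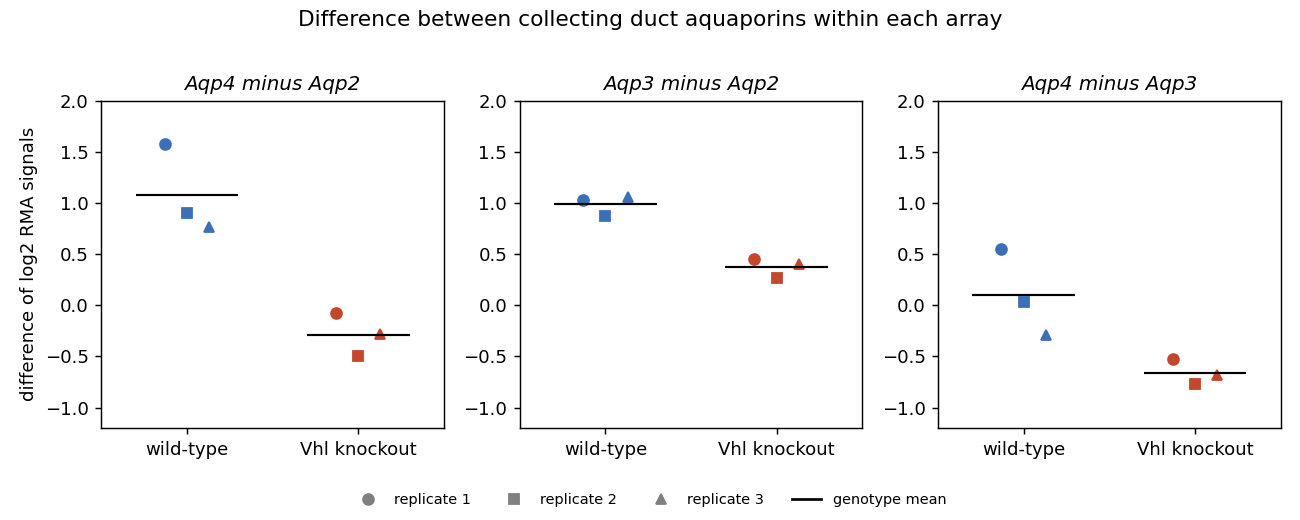
Difference between the log2 RMA signals of 2 aquaporins on the same array, for 3 wild-type (blue) and 3 Vhl knockout (red) arrays, with the genotype mean as a line. In each panel all knockout arrays lie below all wild-type arrays, with changes of -1.37, -0.61 and -0.76.

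The other aquaporins of kidney tubules did not pass the test. Aqp1 read 10.13, 10.23 and 10.10 in the wild-type and 10.12, 9.98 and 10.12 in the knockout kidneys, and the genotypes overlapped (change -0.08, 95% interval from -0.27 to 0.10, limma adjusted p = 0.655). Aqp11, a channel of the endoplasmic reticulum of proximal tubule cells whose loss gives mice polycystic kidneys, read 9.03, 9.18 and 9.07 in the wild-type and 8.87, 9.0 and 8.99 in the knockout kidneys. Its groups lay 0.03 apart without overlap, but its change of -0.14 had an adjusted p of 0.432. Aqp7, a channel for water and glycerol in the proximal straight tubule and in fat cells, read 8.58, 8.55 and 8.50 in the wild-type and 8.44, 8.54 and 8.55 in the knockout kidneys (change -0.03, adjusted p = 0.861). Its lowest signal was on the array of knockout replicate 1, where the adipocyte markers had their highest mean, and the part of fat cells in its values was not tested.
Aqp6, known from rats as an anion-permeable channel in vesicles of intercalated cells, read 7.51, 7.71 and 7.40 in the wild-type and 8.22, 7.62 and 7.73 in the knockout kidneys. Knockout replicate 1 stood apart from the other 5 arrays, replicate 3 lay just above the highest wild-type array, and replicate 2 lay among the wild-type arrays. The change was 0.32 (adjusted p = 0.384), and 0.14 without that array (adjusted p = 0.642).
Aqp5, Aqp8 and Aqp9 are known mainly from other organs, Aqp5 from salivary and lacrimal glands, Aqp8 from the digestive tract and testis, and Aqp9 from the liver. On all 6 arrays these rows lay below the array median, which limits what they can show. Aqp5 read 4.49 to 4.85 in the wild-type and 4.77 to 4.89 in the knockout kidneys, with a change of 0.11 (adjusted p = 0.667). Aqp9 read 3.52 to 4.21 and 3.66 to 4.10, with a change of -0.03 (adjusted p = 0.952), which changed sign under several settings. Aqp8 read 3.47, 3.39 and 3.60 against 3.12, 3.36 and 3.21, a change of -0.26 (adjusted p = 0.233) with groups 0.03 apart. Counting Aqp3, Aqp4, Aqp8 and Aqp11, 4 of the 10 aquaporins were lower with no overlap of the genotypes and 0 were higher with none, beside 12.7% and 11.2% of all rows (23.8% in either direction). Mip and Aqp12, other genes of the family, had changes of -0.01 (adjusted p = 0.978) and -0.03 (adjusted p = 0.888), and both signs were reversed by quantile normalization.

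**Figure D3:**
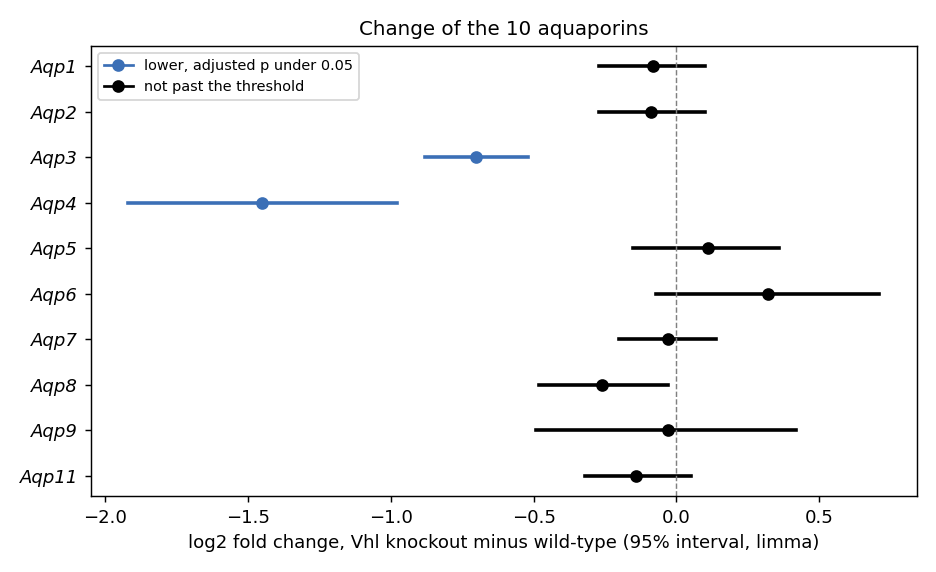
Log2 fold change of each aquaporin, Vhl knockout minus wild-type, with its 95% interval from limma (n = 3 arrays per genotype). Aqp3 and Aqp4, in blue, lie below 0 past the threshold at -0.70 and -1.45, and the other 8, in black, do not pass it.

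Some of these genes lie side by side in the genome. In the GRCm38.p6 annotation, Aqp7 and Aqp3 follow each other on chromosome 4 with no other protein-coding gene starting between them. Aqp3 passed the test and Aqp7 did not, with changes of -0.70 and -0.03, and the difference between them was not tested. Aqp2, Aqp5 and Aqp6 lie in a row on chromosome 15, likewise with none between them, and none of these 3 passed the test. Aqp4 lies on chromosome 18.

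Markers of the principal cell, where Aqp2, Aqp3 and Aqp4 act, gave 2 genes that were lower. The other 7 of 9 markers did not pass the test, and the median change was -0.01 (3 higher and 2 lower at an unadjusted p under 0.05). Fxyd4, a regulator of the sodium pump in the collecting duct, read 7.10, 7.15 and 6.99 in the wild-type and 6.26, 6.50 and 6.14 in the knockout kidneys (change -0.78, adjusted p = 0.0144). Hsd11b2, which shields the mineralocorticoid receptor from glucocorticoids, read 8.36, 8.44 and 8.40 against 7.95, 7.98 and 8.07 (change -0.40, adjusted p = 0.0359). For both genes the groups did not overlap. Nor did they for 4 markers that read higher in the knockout kidneys, none of which passed, beside 11.2% of all rows. These were St6gal1 with a change of 0.43 (limma adjusted p = 0.0714), Gata3 with 0.33 (0.142), Npnt with 0.25 (0.228) and Scnn1g with 0.17 (0.296). Fxyd4 lost the call without wild-type replicate 1 or 2 or knockout replicate 1 (adjusted p of up to 0.0646), and Hsd11b2 whichever array was left out (adjusted p from 0.0747 to 0.119). The adipocyte covariate ended both calls (adjusted p = 0.0945 and 0.169), and a replicate block ended that of Hsd11b2 (adjusted p = 0.111). The mean signal of the 9 markers was 6.94 to 7.04 on the wild-type and 6.94 to 6.99 on the knockout arrays.
Set against this mean on each array, Aqp4 was 2.30, 1.60 and 1.54 above it in the wild-type and 0.45, 0.28 and 0.40 in the knockout kidneys, a change of -1.44. Aqp3 changed by -0.68, from 1.75, 1.57 and 1.83 to 0.98, 1.05 and 1.08. Neither difference overlapped between the genotypes (exact two-sided permutation p = 0.1, the smallest possible, adjusted p = 0.15 over 3). Against the median of the markers in place of their mean, the change of Aqp3 was -0.36. Aqp2 changed by -0.07 against the mean, with overlap (exact permutation p = 0.5), and by 0.25 against the median, so its direction depended on the summary. The median was the signal of Fxyd4 on every wild-type array (7.10, 7.15 and 6.99). On the knockout arrays it was that of Gata3 for replicates 1 and 2 (6.86 and 6.70) and Avpr2 for replicate 3 (6.66). The values against the median thus set different genes beside each other, whose signals are not compared as levels.
Of 10 markers of intercalated cells, the other cell type of the collecting duct, none passed in limma, with 0 higher and 5 lower before adjustment (p under 0.05), beside the 8.38% of all rows. Their median change was -0.23. The anion exchanger Slc4a9 had -0.52 (adjusted p = 0.0969) and the proton pump subunit Atp6v1b1 -0.31 (adjusted p = 0.225). Slc4a9 passed without knockout replicate 1 (-0.66, adjusted p = 0.0289), and also under the filter on dim rows and with trended and robust eBayes (adjusted p = 0.0474 and 0.0427), where 2 and 1 of the 10 markers passed. Their mean signal was 7.54 to 7.56 on the wild-type arrays, 7.56 on that of knockout replicate 1 and 7.25 and 7.30 on those of replicates 2 and 3.

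The signals that control the collecting duct channels were described with 14 genes of vasopressin signalling and of the prostaglandins and endothelin that oppose or modify it. Of these, 2 were higher and 12 did not pass, none being lower. The median change was -0.03. At an unadjusted p under 0.05 in limma, 4 were higher and 1 lower, beside 8.67% and 8.38% of all rows. Avpr2, the vasopressin receptor, read 6.59, 6.69 and 6.63 in the wild-type and 6.52, 6.61 and 6.66 in the knockout kidneys, with overlap (change -0.04, 95% interval from -0.21 to 0.14, limma adjusted p = 0.839). Edn1, endothelin, a peptide that inhibits water reabsorption in the collecting duct, read 4.73, 4.60 and 4.53 against 5.37, 5.83 and 5.46. No knockout array overlapped with the wild-type arrays, and the change was 0.93 (adjusted p = 0.0144), with the call lost without wild-type replicate 2 or 3 (adjusted p = 0.0565 and 0.0614) and under a replicate block (0.0541). The prostaglandin receptor Ptger4, which raises cyclic AMP, had a change of 0.54 (adjusted p = 0.0414). Its adjusted p was 0.0647 to 0.13, past the threshold no longer, after quantile normalization, under a replicate block and whichever array was left out. Ptger1, another prostaglandin receptor and the 1 gene lower before adjustment, had -0.57 (limma adjusted p = 0.1).
Of 10 measured transcription factors tied to Aqp2 expression, 2 were higher and 8 did not pass, none being lower. The median change was 0.16, with 4 higher and 1 lower at an unadjusted p under 0.05 in limma. The ETS family factor Elf3 read 5.41, 5.52 and 5.34 in the wild-type and 6.13, 6.29 and 6.22 in the knockout kidneys, without overlap. Its change was 0.79 (adjusted p = 0.00585), and it passed with each array left out. Jun, part of the factor AP-1, had 0.74 (adjusted p = 0.0143), with the call lost without wild-type replicate 1 or 3 or knockout replicate 3 (adjusted p of up to 0.0605). Many cell types express Jun.

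**Figure D4:**
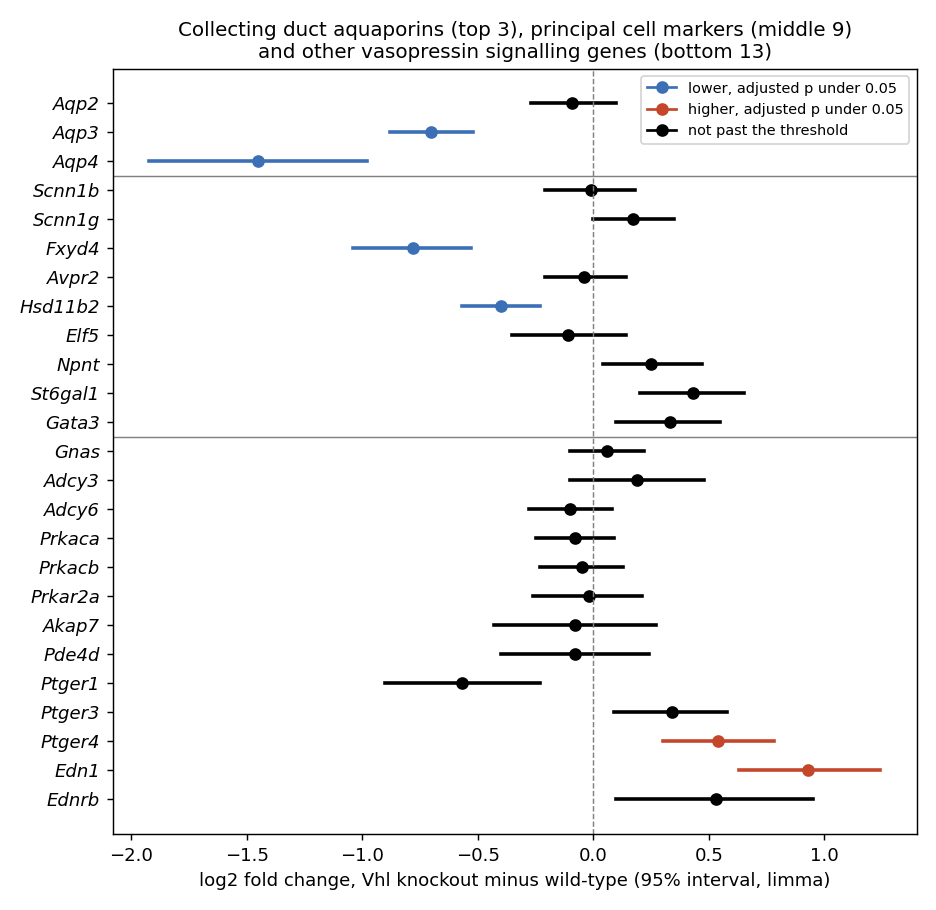
Log2 fold change, Vhl knockout minus wild-type, with its 95% interval from limma, of Aqp2, Aqp3 and Aqp4, of 9 principal cell markers and of the other 13 vasopressin signalling genes (Avpr2 is in both lists and is drawn among the markers). Fxyd4 and Hsd11b2 are lower and Ptger4 and Edn1 higher past the threshold, while Avpr2 lies at -0.04.

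Genes that carry, hold or use the water channels were mostly not past the threshold. None of 13 genes of vesicle trafficking passed in limma (1 higher and 2 lower at an unadjusted p under 0.05). The largest changes there were -0.23 for Rab11fip2, a partner of the recycling GTPase Rab11 (adjusted p = 0.239), and 0.22 for the ubiquitin ligase Nedd4 (adjusted p = 0.22). None of 7 measured genes of the dystrophin complex, which anchors Aqp4 in brain and muscle, passed either (2 higher and 0 lower unadjusted), with 0.20 for the syntrophin Sntb2 and 0.19 for dystroglycan Dag1 (adjusted p = 0.214 and 0.235).
Of 6 measured transport genes of urine concentration, 1 was higher and 5 did not pass. The urea transporter Slc14a1, found on descending vasa recta and red blood cells, read 5.40, 5.29 and 5.51 against 5.98, 6.01 and 5.87. The groups did not overlap, and the change was 0.55 (adjusted p = 0.0215). Leaving out any array but wild-type replicate 3 ended this call (adjusted p from 0.0518 to 0.0855), as did a replicate block (0.0872) and the adipocyte covariate (0.103). The sodium, potassium and chloride cotransporter Slc12a1 of the thick ascending limb had -0.16 (adjusted p = 0.327).
Of 6 measured genes of the response to high osmolality, Slc38a2 alone was higher. This amino acid transporter, which also responds to amino acid shortage, read 7.94, 8.04 and 8.05 in the wild-type and 8.76, 8.92 and 8.76 in the knockout kidneys, a change of 0.80 (adjusted p = 0.00463) that passed with each array left out. The heat shock gene Hspa1b had 0.51 (adjusted p = 0.184). None of 8 measured glycerol-handling genes passed in limma (0 higher and 1 lower unadjusted), with -0.26 for Tkfc, which phosphorylates dihydroxyacetone, and 0.25 for the lipase Pnpla2 (adjusted p = 0.298 and 0.484). Without knockout replicate 1, which had the highest adipocyte mean, Tkfc had -0.15 and Pnpla2 0.06 (adjusted p = 0.516 and 0.818).

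Markers of the other cell types that express aquaporins, or that could dilute their signal, were measured on the same arrays. None of 10 proximal tubule, 7 measured thick ascending limb and 5 distal convoluted tubule markers passed the test in limma, with medians of -0.06, 0.01 and 0.04 and, at an unadjusted p under 0.05, 1 higher and 1 lower in each list. All of these markers lay above the array median on every array, as did 8 of the 9 principal cell markers, Elf5 being the other. Of 9 endothelial markers, 1 was higher, Tie1, a receptor of endothelial cells with a change of 0.49 (adjusted p = 0.0299), which kept the call only without knockout replicate 2 when single arrays were left out (adjusted p of up to 0.104) and lost it under a replicate block (0.0848) and the adipocyte covariate (0.144). Over the 9 endothelial markers the median change was 0.29. At an unadjusted p under 0.05 in limma, 6 were higher and 0 lower, beside 8.67% and 8.38% of all rows. Cdh5, the cadherin of endothelial junctions, had 0.49 (adjusted p = 0.108, or 0.0467 with trended and robust eBayes). Their mean signal was 8.12 to 8.18 in the wild-type and 8.32 to 8.59 in the knockout kidneys, and their part in the values of Aqp1, which some of these vessels express, was not tested. None of 3 measured red blood cell markers (0 higher and 0 lower unadjusted) or of 7 neutrophil markers (0 higher and 1 lower unadjusted) passed in limma, and all of these lay below the median on at least some arrays.
Most macrophage markers were higher in the Vhl knockout kidneys. Of 8 markers, 7 were higher and 1 did not pass, beside 2.24% of all rows that were higher. Their mean signal was 5.91 to 6.14 on the wild-type and 7.23 to 7.33 on the knockout arrays. Their part in the fall of Aqp3 and Aqp4 was not tested. Of the 6 adipocyte markers measured, none passed the test in limma (2 higher and 0 lower at an unadjusted p under 0.05), with 2.36 for the hormone Retn and 1.83 for the lipid droplet protein Cidec (adjusted p = 0.241 and 0.352). Single arrays decided these values. Without knockout replicate 2, 4 of the 6 passed, with 3.44 for Retn (adjusted p = 0.0301) and 2.94 for Cidec (adjusted p = 0.0283), and without knockout replicate 1 the values were 1.37 and 0.97 (adjusted p = 0.405 and 0.623). On the array of knockout replicate 2, where the adipocyte mean was 4.75, Aqp3 read 7.99 and Aqp4 7.22. Knockout replicates 1 and 3 read 7.98 and 8.06 for Aqp3 and 7.44 and 7.37 for Aqp4. The part of fat cells in the fall of Aqp3 and Aqp4 was not tested. With the adipocyte mean as a covariate, Aqp3 had a change of -0.69 (adjusted p = 0.0559) and Aqp4 of -1.60 (adjusted p = 0.0644), past the threshold for neither.

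The rows most like an aquaporin across the arrays were found by Pearson correlation of log2 signals over the 6 arrays, among 20204 named rows. These values describe the pattern only, since a great many rows were searched over few arrays, which all rows share. The rows closest to Aqp4 were Bet1 (r = 0.997), Nwd2 and Fggy (r = 0.989 each), and Pgk2 and Tmem167b (r = 0.988 each). Among the other aquaporins Aqp3 was closest to Aqp4 (r = 0.938), while Aqp2 had r = 0.486. Closest to Aqp2 were Plekhg4, Coq3 and Crot (r = 0.994 each), Mpv17l (r = 0.993) and Psmd2 (r = 0.992), and Aqp6 had r = -0.885 with it. The rows closest to Aqp7 were Fam47e (r = 0.998), Apoa2 (r = 0.995), Ap3m1 (r = 0.994), and Myh15 and Snrpe (r = 0.991 each).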

How the data were processed

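Whole-kidney extracts, 3 labelled wild-type and 3 Vhl knockout, were measured on 1 array each. Genotype and replicate number came from the sample labels. The deposited log2 signals, 1 per Entrez Gene row, had been made by the authors with RMA (version: not given in the sources used here). A further table repeats these log2 values (equal in all 25206 rows within 1e-06) beside the authors' comparison of the genotypes, which was not used. There were 0 unused sample columns. Symbols are those of the platform annotation after an update by Entrez ID to RefSeq (GRCm38.p6), which left 2021 rows without a symbol. No test for the arrays is named in the study's methods. The genotypes were compared by limma 3.58.1 (R 4.3.3) on all rows, without a filter or covariate, with Benjamini-Hochberg adjustment. Differences within arrays were compared by exact permutation (scipy 1.17.1). The fit was tested on simulated data. The members and the 18 gene lists were chosen with earlier results of these data known. The rule for named genes took all members, up to 4 genes of a list that passed (the 2 of largest change if fewer than 2 did), and the 5 rows most like Aqp2, Aqp4 and Aqp7. Avpr2, Elf5, Ptger1 and the principal cell markers named as higher stand outside this rule, and 6 cell type lists are given by counts only. The number of arrays limits the precision. Alternatives were quantile normalization, a filter on dim rows, trended and robust eBayes, array weights, a replicate block, each array left out, an adipocyte covariate, and a fit without knockout replicates 1 and 3.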

Additional observations from a re-analysis of the deposited data

How the results depend on the processing

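With each array left out in turn, 245 to 409 rows changed instead of 697, 1 to 2 of the aquaporins instead of 2, and 10 to 17 genes of the lists instead of 16. A filter that kept rows brighter than the median on 3 or more arrays gave 1101 changed rows, trended and robust eBayes 1094, a block for the replicate number 270 and the adipocyte covariate 164. The fit that dropped Vhl knockout replicates 1 and 3 gave 8, and its lone knockout array was assumed to vary like the others. The covariate and this fit called 0 aquaporins, with 10 and 0 genes of the lists, so that Elf3 and Slc38a2, which passed with each single array left out, did not pass without both knockout replicates (adjusted p = 0.111 and 0.0938). In the smaller fit Aqp3 changed by -0.72 (adjusted p = 0.149) and Aqp4 by -1.58 (adjusted p = 0.208). Fewer samples enter it. For the covariate the cause of the lost calls was not tested. The deviations of same-numbered arrays from their genotype means correlated by -0.0996 to 0.0731, and 2 of 6 arrays correlated best with their own number. These values gave no sign of pairing by replicate number, but with 3 arrays per genotype they cannot exclude it. With the block Aqp3 and Aqp4 passed (adjusted p = 0.0398 and 0.0319).
Aqp3 and Aqp4 kept their direction under all 13 alternatives, Aqp3 losing the call in 2 and Aqp4 in 5, with changes (log2) of -0.75 to -0.66 and -1.61 to -1.21 when single arrays were left out. The near-zero change of Aqp9 became 0.01 after quantile normalization, 0.03 with the covariate and 0.17 without knockout replicates 1 and 3, and lay between -0.24 and 0.11 with single arrays left out. Under quantile normalization Aqp12 had 0.01 and Mip 0.04, and Mip had 0.03 with array weights and -0.17 to 0.08 with single arrays left out. Cidec had -0.40 without knockout replicates 1 and 3. Aqp2 relative to the median of the principal cell markers had 0.25, where the median read Fxyd4 on the wild-type arrays and other markers on the knockout arrays. The causes of the other reversals were not tested. The filter on dim rows gave no value for Aqp5, Aqp8 and Aqp9. Trended and robust eBayes called 1 thick ascending limb and 1 distal convoluted tubule marker, and the filter on dim rows 1 of the latter.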
